A study of Mus musculus with 24 samples.

Results

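The genes described here are 9 that are widely used to recognise macrophages: Csf1r, Adgre1, Cd68, Lyz2, Mrc1, Msr1, Cd163, Mertk and Cd14. They were taken from the deposited gene table by their symbols, with earlier results of these data known, and make up 9 of its 54532 genes. RNA was sequenced in 24 polyA libraries of mouse bone marrow cultures, in 8 groups of 3. Bone marrow-derived macrophages (BMDMs) were grown for 7 days with medium conditioned by L929 cells, a fibroblast line that secretes CSF1, and bone marrow-derived dendritic cells (BMDCs) for 7 days with GM-CSF and IL-4. The donors were Tmem173 fl/fl mice that lacked (WT) or carried (CRE) a CreERT2 recombinase driven by Lyz2, so both genotypes carried the floxed gene. The methods of the study give tamoxifen to mice of both genotypes, without tying that treatment to the marrow donors. Each culture was a control or was given DMXAA (Vadimezan), an agonist of mouse STING, the protein that Tmem173 encodes. The design text gives the dose as 40 µM while the methods of the study give µg/mL, so the concentration is uncertain, and the sources used here do not state the length of the exposure of these libraries. The methods give ages at tamoxifen treatment without tying one to the donors of these cultures.

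Macrophages depend on the CSF1 receptor for survival, and their cultures are recognised by receptors and lysosomal proteins that serve uptake: scavenger and mannose receptors bind modified lipoproteins, microbes and spent haemoglobin, MERTK binds apoptotic cells, and lysozyme and CD68 belong to the digestive compartment. STING senses cyclic dinucleotides and drives type I interferon and inflammatory genes through TBK1 and IRF3. Inflammatory activation is known to change the surface receptors of macrophages, which is the reason for asking which identity genes fell under DMXAA. Because Lyz2 drives the recombinase in the CRE mice and is also a gene described here, its level in CRE cultures has a limit of its own. The sources used here do not say whether the recombinase lies within Lyz2, so an effect of that allele on Lyz2 and an effect through Tmem173 cannot be told apart.

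Total counts ranged from 15657347 to 18912887 per library. The BMDM libraries numbered 3, 1 in each BMDM group, stood apart: the 9 identity genes summed to 42.6 to 72.4 CPM (counts scaled to the total of each library) there, against 8997 to 21758 in the other 8 BMDM libraries and 2101 to 9178 in the 12 BMDC libraries. The 10 fibroblast markers, each detected in at least 1 library numbered 3, summed to 14300 to 22096 CPM in those libraries and to 49.4 to 692 in the other 8, with 692 and 601 in the WT libraries numbered 2; 8 leukocyte markers summed to 130 to 193 against 3719 to 5573. The 5 monocyte markers summed to 1821 to 2219 CPM in the libraries numbered 3 against 44.1 to 270 in the other 8, of which Fn1 (fibronectin, which fibroblasts also make) held 1819 to 2218. Those 4 libraries go against their macrophage label and are therefore shown apart, and BMDM tests used the libraries numbered 1 and 2. Tmem173 itself was listed in every CRE library, at 8.76 to 10.4 FPKM in the CRE BMDM controls against 9.91 to 14.7 in WT, and at 19.7 to 36.8 in the CRE BMDC controls against 28.8 to 51.6. Under DMXAA it was at 9.12 to 10.1 FPKM in CRE BMDMs against 22.8 to 31.8 in WT, and at 24.3 to 35.1 in CRE BMDCs against 34.6 to 55.3, so the genotypes overlapped in each comparison except that of BMDMs under DMXAA. The 4 closest pairs of BMDC libraries by their counts carried opposite genotype labels, the closest being CRE control 1 and WT control 3. No label says that replicates came from separate animals or cultures, so p-values measure the spread between these libraries, which may be technical.

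The promoters below are shown for 4 of the genes whose change under DMXAA the results turn on, so that the sequence upstream of each can be read beside its values. Adgre1, which was called in WT BMDCs, had no entry among the promoters used and was not searched. They come from the RefSeq promoter table of GRCm38.p6 and run 5′ to 3′ along the gene's strand, up to the base before the start or before the first annotated exon of any gene. Capitals mark a match to GAGGAA, the core bound by the lineage factor PU.1, on either strand; the interferon response element core GAAANNGAA and the AP-1 element TGANTCA were searched as well. In the 250 bases before the start, GAGGAA was found in 23.3% of 32851 promoters, GAAANNGAA in 7.13% and TGANTCA in 6.75%. The lines give Lyz2 (chr10:117282322-117282522, minus strand), Mrc1 (chr2:14229164-14229391, plus), Cd163 (chr6:124304429-124304650, plus) and Mertk (chr2:128698665-128698914, plus).
Lyz2: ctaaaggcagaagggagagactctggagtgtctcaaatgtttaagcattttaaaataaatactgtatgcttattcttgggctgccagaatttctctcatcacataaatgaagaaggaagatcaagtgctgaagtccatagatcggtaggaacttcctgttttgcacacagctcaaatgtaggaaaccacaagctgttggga
Mrc1: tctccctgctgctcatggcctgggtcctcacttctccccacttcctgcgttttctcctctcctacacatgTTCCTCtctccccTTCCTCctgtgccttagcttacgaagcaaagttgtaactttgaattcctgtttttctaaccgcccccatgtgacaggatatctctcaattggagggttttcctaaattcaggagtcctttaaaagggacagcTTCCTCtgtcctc
Cd163: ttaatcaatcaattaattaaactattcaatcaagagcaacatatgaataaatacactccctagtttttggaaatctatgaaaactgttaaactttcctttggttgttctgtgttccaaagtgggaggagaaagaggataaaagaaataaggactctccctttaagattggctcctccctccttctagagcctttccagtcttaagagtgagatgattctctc
Mertk: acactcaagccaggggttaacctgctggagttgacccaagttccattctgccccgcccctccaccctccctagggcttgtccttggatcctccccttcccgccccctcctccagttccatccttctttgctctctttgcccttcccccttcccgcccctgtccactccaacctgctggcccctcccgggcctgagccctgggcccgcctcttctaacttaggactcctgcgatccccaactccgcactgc
Mrc1 held 3 matches to the PU.1 core, each read as TTCCTC on the printed strand and beginning 180, 167 and 35 bases before the start. None of the 3 motifs was found in the windows of Lyz2, Cd163 or Mertk. Cd68, whose promoter is not printed, held 1 match to the PU.1 core and 2 to the AP-1 element. A match is a run of letters in this window and does not show that a factor binds there.

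Levels are given in FPKM, fragments scaled to gene length and library size, which allows genes to be compared with each other. In the 8 BMDM libraries Lyz2 stood highest of the 9 genes, at 2667 to 10806 FPKM, and Cd68 followed at 1079 to 1660. Cd14 (201 to 620), Csf1r (325 to 414), Adgre1 (208 to 356) and Msr1 (73.2 to 158) lay between, and Mrc1 (19.96 to 47.3) and Mertk (6.54 to 23.9) were lower. Cd163 did not pass 0.879 FPKM in any library. In the 12 BMDC libraries Lyz2 again stood highest at 927 to 5963, Cd68 lay at 123 to 320, and Adgre1, Cd14 and Csf1r lay between 22.1 and 102. The ranges of neighbouring genes overlapped in that lower part of the order, as did Msr1 (14.2 to 30.1), Mrc1 (3.84 to 28.9) and Mertk (3.25 to 35.6).

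**Figure D1:**
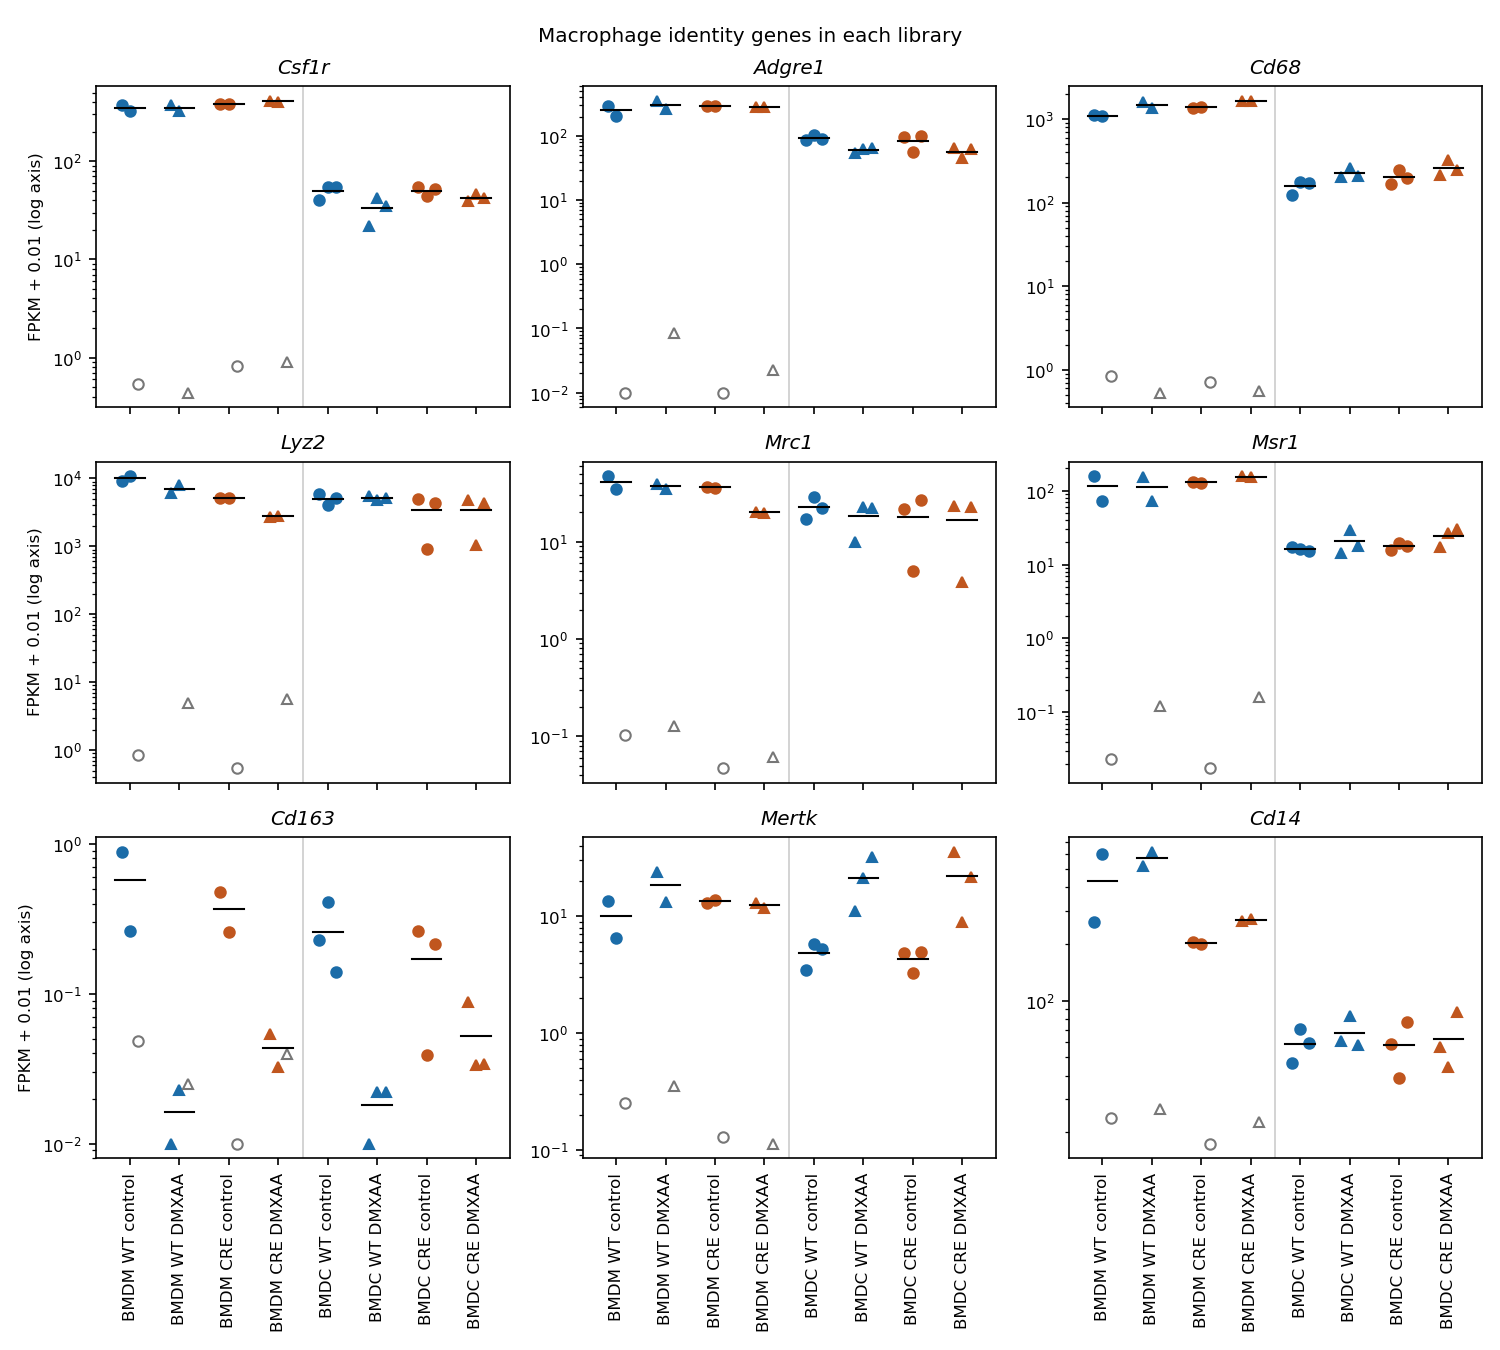
FPKM of each of the 9 genes in each library, on a log axis after adding 0.01; circles are control and triangles DMXAA libraries, blue WT and orange CRE, the open grey symbols are the BMDM libraries numbered 3, and the bar is the mean of the filled symbols. Cd68, Csf1r, Adgre1, Cd14 and Msr1 lie lower in BMDC than in BMDM groups, Mertk lies higher in both DMXAA groups of BMDC than in their controls, and Cd163 is near 0 in the DMXAA groups.

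The first question was which identity genes fell under DMXAA in WT BMDMs. Lyz2, which encodes lysozyme M, fell. In this fit, which did not pair libraries by number, the other 7 genes that could be tested did not pass in either direction. A gene was tested where it reached 1 FPKM in at least 3 libraries, and was called where edgeR's quasi-likelihood test gave a Benjamini-Hochberg adjusted p under 0.05 over all genes tested; 8 of the 9 genes were tested and Cd163 is treated on its own. Lyz2 (ENSMUSG00000069516, chr10:117277331-117282321) was at 9222 and 10806 FPKM in control and at 6185 and 7964 under DMXAA, so that both treated libraries lay below both controls. The change was -0.60 on the log2 scale (SE 0.18, adjusted p = 0.0333), 1.52-fold lower. Of all 10938 genes tested, 21.7% were called lower and 18.7% higher, so 1 lower call among 8 is below the share of all genes. When libraries were scaled by their totals instead of by TMM, the median of all genes moved from -0.08 to -0.60 and the lower share of all calls from 53.8% to 80.9%. Lyz2 then changed by -1.11 (adjusted p = 0.00293), and Csf1r (-0.63) and Mrc1 (-0.77) were also called, by little more than the median. The call of Lyz2 was lost without WT DMXAA 1 (-0.42, adjusted p = 0.103) and without WT control 2 (-0.45, adjusted p = 0.0883), and in a fit of these 4 libraries alone (adjusted p = 0.3003). The 4 responses to DMXAA each have control libraries of their own, but each shares them with the comparisons between genotypes and cultures. The closest BMDC pairs cross the genotype labels, so the WT and CRE BMDC responses are not shown to be independent.

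Among the lysosomal genes, Cd68 (ENSMUSG00000018774, chr11:69664213-69666153), a membrane glycoprotein of the lysosome, went the other way in WT BMDMs without passing the test. It was at 1121 and 1079 FPKM in control and at 1582 and 1367 under DMXAA, a change of 0.32 (SE 0.12, adjusted p = 0.0695). Its groups did not overlap in FPKM, and it was called under median of ratios scaling (adjusted p = 0.0413), by DESeq2 (adjusted p = 0.00946) and by limma (adjusted p = 0.0240), but its sign turned under scaling by library totals (-0.20, adjusted p = 0.119). Mertk, the receptor for apoptotic cells, was at 13.5 and 6.54 FPKM in control and 23.9 and 13.2 under DMXAA, with a change of 0.79 (SE 0.37, adjusted p = 0.131) and overlapping groups. Control and DMXAA libraries of the same number deviated together in WT BMDMs (correlation 0.611). Estimated within numbers, Mertk and Cd68 were called higher beside Lyz2, and the share of all genes called was not set beside that fit. Mrc1, the mannose receptor CD206, was at 47.3 and 34.5 in control and 38.9 and 35.1 under DMXAA (-0.24, adjusted p = 0.251). Csf1r (-0.10), Adgre1 (0.19), Cd14 (0.30) and Msr1 (-0.12) had adjusted p of 0.490 to 0.843. Cd14 shows how far the WT libraries lay apart: its controls were at 261 and 600 FPKM, with the higher value in the library numbered 2. With a single library left out, Mrc1 (-0.42, adjusted p = 0.0245) and Cd14 (1.06, adjusted p = 0.00262) were called without WT control 2, Mertk (1.39, adjusted p = 0.0232) without WT control 1 and Cd68 (0.41, adjusted p = 0.0308) without WT DMXAA 2. Leaving out both WT libraries numbered 2, which held the more abundant fibroblast transcripts, leaves a single library in each WT group, so only the changes are given. They were -0.67 for Lyz2, -0.38 for Mrc1, -0.13 for Msr1 and -0.09 for Csf1r. Cd14 changed by 0.90, Mertk by 0.72, Cd68 by 0.40 and Adgre1 by 0.17. The spread then rested on the closely matching CRE pairs, and the part of the fibroblast transcripts in these values was not tested.

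In CRE BMDMs, Lyz2 and Mrc1 fell under DMXAA. Lyz2 was at 5101 and 5158 FPKM in control and at 2667 and 2837 under DMXAA, a change of -0.92 (SE 0.18, adjusted p = 0.0211), 1.89-fold lower. Mrc1 (ENSMUSG00000026712, chr2:14229392-14332057) was at 36.5 and 36.1 in control and at 20.3 and 19.96 under DMXAA, a change of -0.87 (SE 0.15, adjusted p = 0.0158). For both genes the treated pair lay well below the control pair, with little distance within a pair. These were 2 lower calls and 0 higher calls among 8 genes, where 3.35% of all genes were called lower and 7.93% higher. Both changes kept their direction and lost their call when any of the 4 libraries was left out, with adjusted p of 0.147 to 0.192 for Lyz2 and 0.132 to 0.134 for Mrc1. A fit of these 4 libraries alone called 5 genes, adding Cd14 (0.38), Msr1 (0.24) and Cd68 (0.23) as higher. Its spread came from these closely matching pairs alone. The 3.35% and 7.93% belong to the fit of 8 libraries, so the 5 calls are not set against a share of all genes. Scaled by library totals the lower share of all calls was 59.7% rather than 29.7%, and Lyz2 (-1.15) and Mrc1 (-1.10) stayed called. The other 6 genes changed by -0.13 to 0.38 and were not called. Mertk was at 13 and 13.8 FPKM in control and 13.1 and 11.7 under DMXAA, with a change of -0.13 and a 95% interval of the difference, taken from its standard error, from -0.85 to 0.58.

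In WT BMDCs, Mertk rose and Adgre1 fell. Mertk (ENSMUSG00000014361, chr2:128698956-128802894), whose protein binds apoptotic cells through GAS6 and protein S, was at 3.43, 5.82 and 5.27 FPKM in control and at 10.98, 21.1 and 32.1 under DMXAA. All 3 treated libraries exceeded all 3 controls, and the change was 2.13 (SE 0.50, adjusted p = 0.00697), 4.37-fold. Adgre1 (ENSMUSG00000004730, chr17:57358691-57483527), which encodes the F4/80 antigen, an adhesion receptor used to sort mouse macrophages, was at 88.2, 102 and 91.2 in control and at 53.6, 61.8 and 64.1 under DMXAA. Again the groups did not overlap, with a change of -0.67 (SE 0.22, adjusted p = 0.0383), 1.59-fold lower. Among all 12126 genes tested, 15.2% were called lower and 17% higher, so 1 call in each direction among 8 genes is close to the share of all genes. Mertk was called whichever library was left out (1.70 to 2.45), whereas Adgre1 lost its call in each of the 6 cases (-0.73 to -0.58, adjusted p = 0.0631 to 0.1202).

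Control and DMXAA libraries of the same number deviated together within each BMDC genotype, so the change was also estimated within numbers. In that fit 4 genes were called in WT BMDCs: Adgre1 (-0.67, adjusted p = 0.000801) and Csf1r (-0.65, adjusted p = 0.00356) lower, and Mertk (2.03, adjusted p = 0.000181) and Cd68 (0.50, adjusted p = 0.00384) higher. The 15.2% and 17% of all genes called belong to the fit without the block, so these 4 calls are not set against a share of all genes. Csf1r, the receptor that L929 medium engages through CSF1, was at 40.6, 54.4 and 54.2 FPKM in WT control and at 22.1, 42.3 and 34.6 under DMXAA. The number 2 library under DMXAA lay above the lowest control, and without the block the change was -0.61 (SE 0.23, adjusted p = 0.0627), which was called by DESeq2 (-0.60, adjusted p = 0.0420), without WT control 1 (-0.74, adjusted p = 0.0483) and without WT DMXAA 2 (-0.83, adjusted p = 0.0245). Cd68 was at 123, 176 and 170 in control and at 200, 261 and 210 under DMXAA, so all treated libraries were higher, with an unblocked adjusted p of 0.106. Lyz2, which fell in BMDMs, was at 5963, 4031 and 5143 in control and at 5497, 4737 and 5169 under DMXAA, and its change of 0.00 had an interval from -1.15 to 1.15 without the block. Mrc1 (-0.33), Cd14 (0.16) and Msr1 (0.33) overlapped between the groups and were not called in either fit. Scaling by library totals moved the median of all genes to -0.36 and the lower share of calls from 47.3% to 73.6%; Adgre1 (-1.03) and Mertk (1.77) stayed called and Csf1r (-0.98) was added.

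In the BMDC libraries labelled CRE, Mertk rose and was the single gene called. Because the closest BMDC pairs cross the genotype labels, this response is not shown to be independent of that in WT BMDCs. It was at 4.81, 3.25 and 4.91 FPKM in control and at 35.6, 8.92 and 21.4 under DMXAA, a change of 2.33 (SE 0.50, adjusted p = 0.00573), 5.01-fold. The groups did not overlap, and the lowest treated value was in the library numbered 2. This was 1 higher and 0 lower calls among 8 genes, beside 14% of all genes called higher and 11.4% lower, and it held whichever library was left out (1.78 to 2.70). Adgre1 was at 95.3, 56.7 and 98.6 in control and 64.5, 45.0 and 62.3 under DMXAA, where the control numbered 2 lay below 2 treated libraries (-0.57, adjusted p = 0.0837). Within numbers, Adgre1 (-0.54, adjusted p = 0.00347), Cd68 (0.32, adjusted p = 0.0371) and Mertk (2.15, adjusted p = 0.000189) were called. The 14% and 11.4% of all genes belong to the fit without that block. Adgre1 was also called without control 2 alone (-0.78, adjusted p = 0.00792). Without both CRE libraries numbered 2, Adgre1 (-0.64, adjusted p = 0.00964) and Mertk (2.53) were called. Those 2 libraries also stood apart in Lyz2, at 927 FPKM in control and 1040 under DMXAA against 4287 to 5035 in the other 4 CRE libraries. Their Mrc1 was 4.997 and 3.84 against 21.7 to 26.8, and the 10 neutrophil markers summed to 415 and 190 CPM there against 12.8 to 36.8 in the WT BMDC libraries; the part of those cells in the identity genes was not tested. Scaled by library totals the lower share of all calls was 73.6% rather than 44.8%, and Adgre1 (-0.91) was called beside Mertk (1.99).

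**Figure D2:**
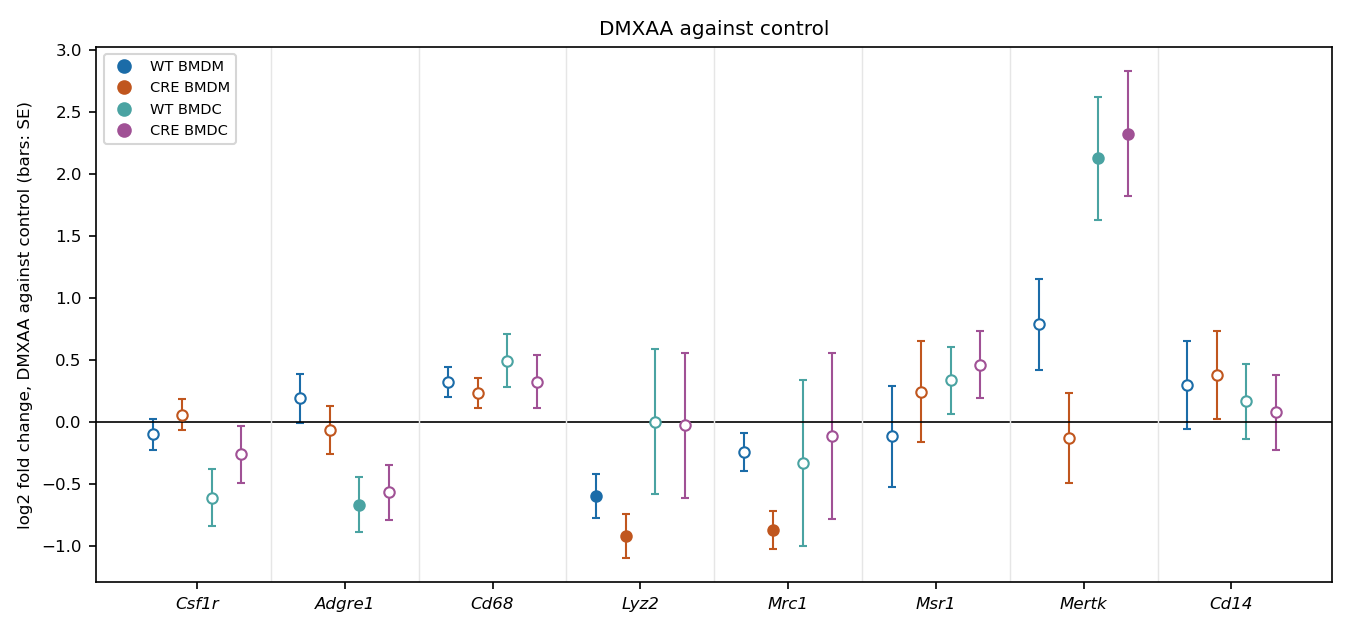
Log2 fold change of DMXAA against control for the 8 genes that passed the filter on low values, in WT and CRE BMDMs (8 libraries) and WT and CRE BMDCs (12 libraries), from edgeR without a replicate block; bars are the standard error and filled points passed an adjusted p of 0.05. Lyz2 is filled below 0 in both BMDM genotypes, Mrc1 in CRE BMDMs and Adgre1 in WT BMDCs, while Mertk is filled above 0 in both BMDC genotypes.

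Cd163 (ENSMUSG00000008845, chr6:124304656-124330527), the receptor that clears haemoglobin bound to haptoglobin, was barely expressed and fell under DMXAA. In WT BMDMs the controls held 98 and 29 counts and the DMXAA libraries 0 and 1. Summed, 127 counts against 1 gave a ratio of control to DMXAA of 120 per total count, with an exact 95% counting interval of 21.2 to 4795. In CRE BMDMs the controls held 46 and 27 counts and the DMXAA libraries 4 and 2, a ratio of 12.6 (5.50 to 35.3). The treated libraries lay below the controls in both genotypes. In WT BMDCs 22, 43 and 14 counts stood against 0, 1 and 1, a ratio of 39.8 (10.7 to 334). In CRE BMDCs 28, 3 and 21 stood against 6, 2 and 2, a ratio of 5.14 (2.58 to 11.3), and there the groups overlapped through the control numbered 2, which was among the libraries poor in Lyz2 and Mrc1. These intervals cover counting error and not the spread between cultures.

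Cd163 missed the filter, so its test was run over all genes with at least 1 read. In that fit edgeR's adjusted p was 2.49e-08 in WT BMDMs, 0.000348 in CRE BMDMs, 0.000653 in WT BMDCs and 0.166 in CRE BMDCs. It was thus called lower in 3 of the 4 responses, beside 11.2%, 2.86%, 5.93% and 4.35% of all genes called lower in the same 4 fits. The call in WT cultures of both kinds held in every alternative run without the filter. In CRE BMDMs it was lost without control 1 (adjusted p = 0.156), without DMXAA 1 (0.111) and without DMXAA 2 (0.210), and in CRE BMDCs it was gained within numbers (adjusted p = 0.0449) and without control 2 (0.0309). The responses of the genotypes were compared directly with edgeR. The interaction was not called in BMDMs (2.79, unadjusted p = 0.0324, adjusted p = 0.290). It was not called in BMDCs either (2.79, unadjusted p = 0.0461, and adjusted p of nearly 1). At 0 to 98 counts per library, the size of the change in a single library is poorly known.

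CRE and WT cultures were compared next. Tmem173 was still counted in every CRE library, and the 5 interferon-stimulated genes used to check exposure summed under DMXAA to 6117 to 6160 CPM in CRE BMDMs against 27069 to 31357 in WT, and to 8530 to 16470 in CRE BMDCs against 11370 to 16556 in WT, so the extent to which STING was lost is not shown by these data. In BMDMs under DMXAA, Lyz2 and Mrc1 were lower in CRE than in WT. Lyz2 was at 2667 and 2837 FPKM in CRE and at 6185 and 7964 in WT, a difference of -1.33 (SE 0.18, adjusted p = 0.00434), 2.52-fold. Mrc1 was at 20.3 and 19.96 in CRE and at 38.9 and 35.1 in WT, a difference of -0.85 (SE 0.15, adjusted p = 0.0118). The genotypes did not overlap in either gene, and 2 of 8 genes were called lower where 10.3% of all genes were. Cd14, the co-receptor that hands lipopolysaccharide to TLR4, was at 267 and 271 in CRE and 521 and 620 in WT, a difference of -1.06 that was not called (adjusted p = 0.0829) but was called by DESeq2 (adjusted p = 0.00846). Both calls were lost when either CRE DMXAA library was left out, with adjusted p of 0.0551 and 0.0605 for Lyz2 and 0.0963 and 0.104 for Mrc1, while the differences stayed at -1.38 and -1.31 and at -0.83 and -0.88. Scaled by library totals, Csf1r (0.50) and Cd68 (0.44) were called higher in CRE as well, and the lower share of all calls was 27.4% rather than 51.6%.

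Lyz2 lay lower in CRE without the agonist as well, by a difference that edgeR did not call. Mrc1 differed by -0.22 there (adjusted p = 0.810) and overlapped between the genotypes. In control BMDMs Lyz2 was at 5101 and 5158 FPKM in CRE and 9222 and 10806 in WT, a difference of -1.01 (SE 0.18), and Cd14 was at 206 and 201 against 261 and 600 (-1.14, SE 0.36). Neither passed the test over all genes (adjusted p = 0.236 and 0.631), so edgeR called 0 of the 8 genes; 2 had an unadjusted p under 0.05, DESeq2 called 1 (Lyz2, adjusted p = 4.19e-05) and limma 0. Of all genes 0.064% were called there. Without WT control 1 the Lyz2 difference was -1.14 and that of Cd14 was -1.63. Without WT control 2 the Cd14 difference was -0.38, and without both WT libraries numbered 2 it was -0.39. Each of these fits leaves a single WT control library, so only the differences are given. All 4 CRE libraries lay below all 4 WT libraries in Lyz2, with or without DMXAA, and whether Tmem173, the recombinase or the donors set this cannot be told apart.

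The interaction, which asks whether the DMXAA response itself differed between the genotypes, was called for 0 of the 8 genes in BMDMs by edgeR, DESeq2 and limma, with 1 at an unadjusted p under 0.05, where 4.22% of all genes were called. That gene was Mrc1, with -0.63 (SE 0.22, adjusted p = 0.160). It changed by -0.24 in WT and -0.87 in CRE. Its interaction was -0.87 without WT control 1 and -0.49 without both WT libraries numbered 2, in fits that leave a single library in a group. The lower share of all interaction calls was 61.3%, and 30.2% when scaled by library totals. Lyz2 had an interaction of -0.32 with an interval from -0.81 to 0.17 (adjusted p = 0.531). Without both WT libraries numbered 2 it was -0.25, with a single library in each WT group. In BMDCs the genotypes could not be separated in any of the 8 genes: edgeR, DESeq2 and limma called 0 in control, 0 under DMXAA and 0 for the interaction, with 0 at an unadjusted p under 0.05, and 0% of all genes were called in each of those 3 edgeR comparisons. Because the 4 closest BMDC pairs cross the genotype labels, these counts of 0 compare the libraries as labelled and do not show that the genotypes are alike. The intervals were widest for Mrc1, from -1.66 to 0.97 in control and from -1.44 to 1.19 under DMXAA, and that of Lyz2 ran from -1.73 to 0.57 under DMXAA. The Mertk difference between the BMDC genotypes under DMXAA was 0.04, with an interval from -0.89 to 0.98.

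The 2 kinds of culture were then compared. In WT control, Csf1r, Cd68, Cd14, Msr1 and Adgre1 were lower in BMDCs than in BMDMs; cell type and culture medium changed together and cannot be told apart, nor in bulk RNA can fewer cells of a type be told apart from less RNA per cell. Csf1r (ENSMUSG00000024621, chr18:61105572-61132149) was at 40.6, 54.4 and 54.2 FPKM in BMDCs and 373 and 327 in BMDMs (-2.82, SE 0.22, adjusted p = 2.86e-07). Cd68 was at 123, 176 and 170 against 1121 and 1079 (-2.82, adjusted p = 1.65e-07). Cd14 (ENSMUSG00000051439, chr18:36725074-36726736) was at 46.4, 70.8 and 59.5 against 261 and 600 (-2.88, adjusted p = 2.32e-05). Msr1 (ENSMUSG00000025044, chr8:39581685-39642673), the class A scavenger receptor that takes up modified lipoproteins, was at 17.1, 16.0 and 15.3 against 158 and 73.2 (-2.84, adjusted p = 2.49e-05). Adgre1 was at 88.2, 102 and 91.2 against 296 and 208 and so differed least of the 5 (-1.43, adjusted p = 0.000233). In none of them did the cultures overlap. How often groups of this size do not overlap was not counted over all genes, here or in the comparisons above. These were 5 lower and 0 higher calls among 8 genes, with 13.9% of all 12730 genes tested called lower and 14.6% higher, and they held whichever library was left out and without both WT BMDM libraries numbered 2. The BMDM libraries numbered 3 were set apart partly because these genes are low in them, so the difference rests partly on that choice. With those libraries included, 0 of the 8 genes were called (Csf1r -2.24, adjusted p = 0.498, and Cd68 -2.25, adjusted p = 0.551).

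Lyz2, Mrc1 and Mertk were not called in WT control, although their values did not overlap either. Lyz2 was at 5963, 4031 and 5143 FPKM in BMDCs against 9222 and 10806 in BMDMs (-0.9996, adjusted p = 0.202), Mrc1 at 17.0, 28.9 and 22.4 against 47.3 and 34.5 (-0.85, adjusted p = 0.351) and Mertk at 3.43, 5.82 and 5.27 against 13.5 and 6.54 (-1.05, adjusted p = 0.133). All 3 were called lower when no filter was applied, and their spread in the 20-library fit includes the CRE BMDC libraries numbered 2. In CRE control the same 5 genes were lower (-2.93 for Csf1r, -2.74 for Cd68, -1.79 for Cd14, -2.87 for Msr1 and -1.79 for Adgre1) and so was Mertk (-1.62, adjusted p = 0.0230), 6 of 8 against 13.2% of all genes. The Mertk call there was lost without BMDM CRE control 1 (adjusted p = 0.0815), BMDM CRE control 2 (0.101) or BMDC CRE control 2 (0.0702). Under DMXAA in WT, the 5 genes were lower again, by -3.37 for Csf1r, -2.69 for Cd68, -3.06 for Cd14, -2.43 for Msr1 and -2.33 for Adgre1, beside 16.1% of all genes. Scaled by library totals the lower share of all calls in that comparison was 34.4% rather than 51.4%. Under DMXAA Mertk stood at 10.98, 21.1 and 32.1 FPKM in BMDCs and 23.9 and 13.2 in BMDMs, which overlapped (0.25, adjusted p = 0.744).

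**Figure D3:**
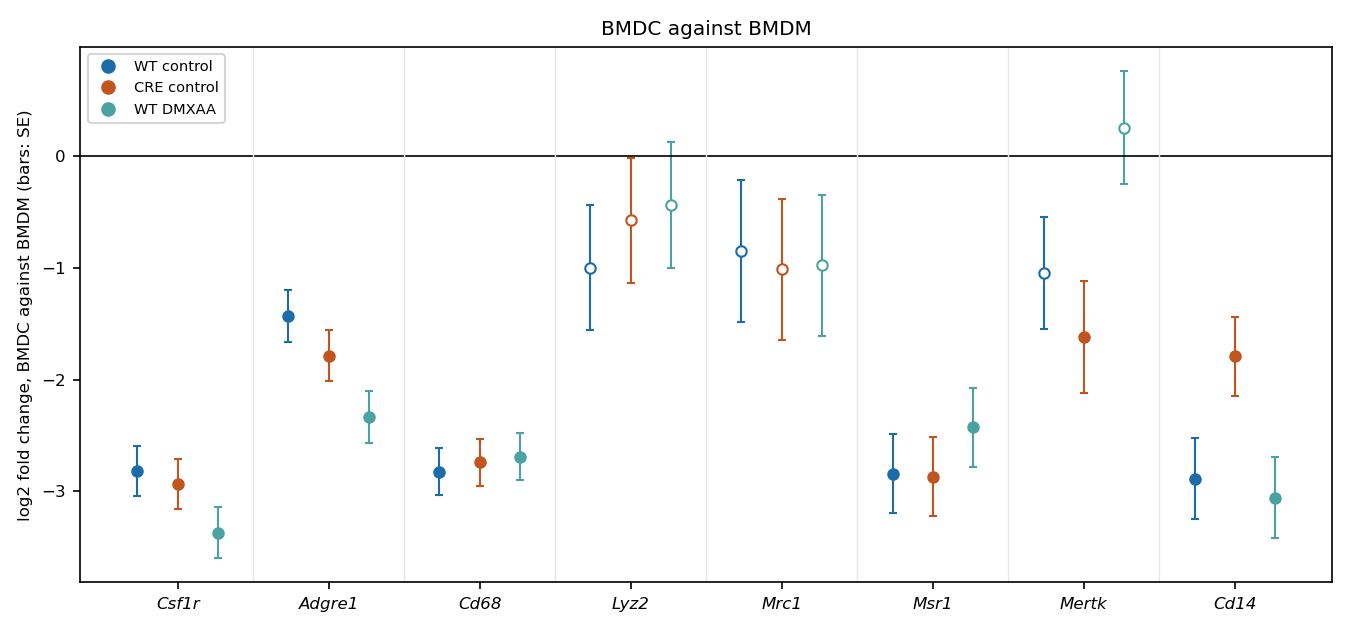
Log2 fold change of BMDC against BMDM for the 8 genes that passed the filter, in WT control, CRE control and WT under DMXAA, from the fit of 20 libraries; bars are the standard error and filled points passed an adjusted p of 0.05. Csf1r, Cd68, Cd14, Msr1 and Adgre1 are filled below 0 in all 3 comparisons, from -3.37 to -1.43, Mertk in CRE control, and Lyz2 and Mrc1 are open.

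Whether DMXAA acted differently in the 2 kinds of WT culture was tested with an interaction. It was called for 0 of the 8 genes by edgeR, DESeq2 and limma, with 1 at an unadjusted p under 0.05 and 2.99% of all genes called by edgeR. Adgre1 came nearest: it changed by 0.19 in WT BMDMs and fell by 0.67 in WT BMDCs, an interaction of -0.90 (SE 0.33, adjusted p = 0.194). For Mertk the interaction was 1.30 (SE 0.71, adjusted p = 0.478), with an interval from -0.10 to 2.70, and it was called when no filter was applied (1.37, adjusted p = 0.00450). Estimated within numbers, Adgre1 (-0.91, adjusted p = 0.00270) and Lyz2 (0.59, adjusted p = 0.0267) were called, in a fit that also blocks the WT BMDMs by number. The 2.99% of all genes belongs to the fit without that block. BMDM numbers were not taken as pairs, although those of WT deviated together. The lower share of all calls was 73.5%, and 54.1% when scaled by library totals.

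Across the 20 libraries without the BMDM number 3 set, Csf1r, Adgre1, Cd68, Msr1 and Cd14 varied most closely together. Pearson correlations of log2(CPM + 1) between them ran from 0.849 to 0.971, and were 0.971 for Cd68 with Msr1, 0.963 for Cd68 with Csf1r, 0.962 for Adgre1 with Csf1r and 0.907 for Csf1r with Cd14. Mrc1 correlated with Adgre1 at 0.70, with Cd14 at 0.618 and with Csf1r at 0.562. Lyz2 correlated with Mrc1 at 0.852 but with Cd68 at 0.165, and Mertk with the other 8 genes at -0.20 to 0.27. These values describe 20 libraries that share culture, donor genotype and treatment, and the cultures differ in the 5 genes of the first set. By the same measure over 12729 other tested genes, the closest to Csf1r were Slc27a1 (0.987), Xylt2 (0.985) and Arhgef10l (0.985), the last also close to Adgre1 (0.977) after Tmx4 (0.981) and before Mcm6 (0.977). Cd68 lay closest to Nceh1 (0.993), Syngr1 (0.991) and Apoe (0.985), Msr1 to Tlr13 (0.984), Abhd12 (0.981) and Syngr1 (0.980), and Cd14 to Sh3bgrl2 (0.966), Clec4a1 (0.962) and Rab34 (0.944). Lyz2 had no partner above 0.864 (Cenpe), followed by Mrc1 and Mcm10 (0.817), and Mrc1 lay closest to Mipep (0.922), Trps1 (0.921) and Smpd4 (0.910). Mertk was closest to Efcab14 (0.928), Cpeb3 (0.915) and Atp8a1 (0.906), and Cd163 to Pola1 (0.948) and BC055324 (0.938).

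The relatives and partners of these genes were counted in the same fits, from lists chosen with earlier results in view. In WT BMDMs, where 18.7% of all genes were called higher and 21.7% lower, the lineage transcription factors moved in both directions, with 6 of 14 higher and 2 lower; Nr1h3, a sterol receptor, rose by 1.94 and Klf4 by 1.56, while Cebpa, a myeloid differentiation factor, fell by 1.93. Of the ligands and adaptors of the CSF1 receptor, 1 of 8 was higher (Grb2, 0.61) and 1 lower (Inpp5d, -1.35). The relatives of MERTK and genes of apoptotic cell uptake gave 3 higher and 6 lower of 13, with Axl, the receptor nearest to MERTK in the TAM family, up by 2.62, Cd300lf up by 2.35 and Lrp1 down by 1.21 on the log2 scale. Their median of -0.58 lay below the -0.08 of all genes. Scavenger receptors gave 3 higher and 2 lower of 10, led by Scarf1 (2.33), Cxcl16 (1.69) and Scarb1 (-0.95). The list called CD14 partners here holds genes of lipopolysaccharide recognition and not only partners of CD14. It gave 5 higher and 0 lower of 9, with Cd180 at 2.73, Myd88 at 2.53 and Ly86 at 2.20. The median of this list was 0.81. The relatives of F4/80 and the mannose receptor gave 1 lower of 6 (Adgre5, -1.22), and the lysosomal relatives of CD68 2 higher of 9 (Lamp2, 1.04, and Lamp1, 0.57). Other macrophage genes gave 3 higher and 5 lower of 15, with the Fc receptor gene Fcgr1 at 4.08, the chemokine receptor gene Cx3cr1 at -2.76 and the iron exporter gene Slc40a1 at -1.75.

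In WT BMDCs, where 17% of all genes were called higher and 15.2% lower, the same lists gave 4 higher and 4 lower of 13 lineage factors; Cebpa fell by 1.71 and Irf8 rose by 2.57. Apoptotic cell uptake gave 3 higher and 1 lower of 14, among them Pros1, which encodes the MERTK ligand protein S (1.13), Itgav (1.28) and Itgb5 (-1.28). Among the ligands and adaptors of the CSF1 receptor, Csf1 rose by 0.97 and Inpp5d fell by 1.19, 2 of 8. Scavenger receptors gave 4 higher and 1 lower of 9 (Scarf1, 2.60, Cxcl16, 1.67, and Scarb2, 0.86), CD14 partners 5 higher and 0 lower of 9 (Cd180, 2.95, Ly86, 2.24, and Myd88, 1.25), and lysosomal genes 3 higher of 8 (Ctsb, 0.92). Relatives of F4/80 and the mannose receptor gave 3 higher and 2 lower of 8, with Clec4e at 4.38, Ly75 at 2.99 and Clec10a at -1.59, and other macrophage genes 3 higher and 1 lower of 12 (Siglec1, 3.09, Mpeg1, 2.05, and Fcgr1, 1.84). The medians of these lists ran from -0.17 to 0.64, beside 0.01 for all genes.

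The CRE cultures were counted in the same way, and the difference from WT was not tested for the lists. Of all genes 7.93% were called higher and 3.35% lower in CRE BMDMs, and 14% higher and 11.4% lower in CRE BMDCs, so fewer genes were called than in WT over the whole table as well. In CRE BMDMs, Zeb2 (0.70) and Spi1 (0.65), which encodes PU.1, rose among 14 lineage factors and 0 fell. Apoptotic cell uptake gave 2 higher and 1 lower of 13, with Cd300lf at 2.80, Axl at 2.07 and Gas6, a ligand of MERTK, at -0.85. CD14 partners gave 4 higher and 0 lower of 9, led by Cd180 (2.20), scavenger receptors 3 higher of 10, led by Scarf1 (1.38), lysosomal genes 1 higher of 9 (Lamp2, 0.67), and other macrophage genes 1 higher and 3 lower of 15, with Fcgr1 at 3.73, Cx3cr1 at -2.15 and Apoe at -0.68. The 8 ligands and adaptors of the CSF1 receptor had adjusted p of 0.0577 to 0.944 and the 6 relatives of F4/80 and the mannose receptor 0.115 to 0.983. In CRE BMDCs, lineage factors gave 3 higher and 3 lower of 13 (Irf8, 1.87), CD14 partners 4 higher of 9 (Cd180, 2.68), apoptotic cell uptake 3 higher and 1 lower of 14 (Itgav, 1.07), scavenger receptors 2 higher of 9 (Scarf1, 2.27), lysosomal genes 2 higher of 8 (Lamp2, 0.70), F4/80 relatives 2 higher and 2 lower of 8 (Clec4e, 3.56), CSF1 receptor adaptors 1 lower of 8 (Inpp5d, -0.88) and other macrophage genes 3 higher of 12 (Siglec1, 4.42). A list of 5 interferon-stimulated genes that checks exposure to the agonist was higher in all 4 responses, 5 of 5 in each. Without the BMDM libraries numbered 3, it summed to 10.4 to 44.7 CPM in the control libraries and 6117 to 31357 under DMXAA. In the libraries numbered 3 it summed to 33.7 and 12.8 CPM in the WT and CRE controls and to 829 and 706 under DMXAA.

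The same lists were counted between the cultures, where 14.6% of all genes were called higher and 13.9% lower in BMDCs in WT control. In WT control 11 of 15 other macrophage genes were lower in BMDCs and 1 higher, with Apoe at -10.56. Cx3cr1 averaged 25.0 FPKM in BMDMs and was listed at 0 in all 3 BMDC libraries, and C1qa, a complement gene, averaged 260 FPKM against 0.103. Of 14 lineage factors 8 were lower and 2 higher, with Maf at -5.67 and Tfec at 2.46. Scavenger receptors gave 7 lower and 1 higher of 10, where Colec12 was at -4.41 and Olr1 at 5.57, and MERTK relatives 7 lower and 5 higher of 15, where Gas6 was at -4.64 and Stab1 at -6.63. Lysosomal relatives of CD68 gave 6 lower and 1 higher of 9, CD14 partners 3 lower and 2 higher of 9 (Ly86, -3.07, and Tlr4, 1.43), and CSF1 receptor adaptors 3 lower and 1 higher of 8 (Trem2, -2.17). F4/80 and mannose receptor relatives went the other way, with 6 higher and 1 lower of 8 (Clec10a, 5.04). All 9 dendritic cell markers tested were higher in BMDCs.

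In the 4 BMDM libraries numbered 3 the identity genes were near 0 with the exception of Cd14. Adgre1 was at 0 to 0.0763 FPKM, Mrc1 at 0.0371 to 0.116, Msr1 at 0.00744 to 0.148, Cd163 at 0 to 0.0385, Mertk at 0.104 to 0.342, Csf1r at 0.430 to 0.895, Cd68 at 0.524 to 0.837 and Lyz2 at 0.538 to 5.62. Cd14 was at 23.7 and 17.4 FPKM in the WT and CRE controls and 26.6 and 22.7 under DMXAA. Lyz2 held 26 and 15 counts in the WT and CRE controls numbered 3 and 158 and 181 under DMXAA, higher with the agonist where the libraries numbered 1 and 2 were lower. Msr1 held 2 and 1 counts in those controls and 17 and 23 under DMXAA. These differences, which had the same direction in both genotypes, were not tested. Lyz1, the neighbouring lysozyme gene whose near-identical sequence can share reads with Lyz2, was at 0.150 to 1.10 FPKM in these libraries and at 0.858 to 2.97 in the other 8.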

How the data were processed

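The members and lists were chosen with earlier results of these data known. Per the submitters' processing notes, reads were handled with CASAVA 1.8, fastp, HISAT2 2.0.5 and featureCounts 1.5.0-p3 on GRCm38 (mm10), and DESeq2 1.20.0 is named; strandedness and annotation release are not given in the sources used here. The authors deposited raw read counts per gene and FPKM values, which they scaled by an effective library size; columns of their own comparisons, which hold log2 fold changes and p-values, were not used. All 48 sample columns were matched to libraries by name.

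Counts were tested with edgeR 4.0.16 (quasi-likelihood, TMM scaling, R 4.3.3) and Benjamini-Hochberg adjustment, at an adjusted p of 0.05, after keeping genes with at least 1 FPKM in at least 3 libraries of the fit. BMDM fits used 8 libraries (10938 genes), BMDC fits 12 (12126 genes) and culture comparisons 20 (12730 genes). Where the F statistic was near 0, the standard error and p were taken from the Wald form. The scripts were tested on simulated data with 200 changed genes. Intervals are 95%. Cd163 was tested without the filter, over 23641 genes in BMDMs and 29530 in BMDCs, and its exact counting intervals cover counting error only. FPKM was used for levels. All 9 genes are named, and from each list up to 3 called genes with the largest change. Some genes that these rules name are not reported here.

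Deviations from group means of control and DMXAA libraries of the same number and genotype correlated at 0.417 to 0.692 in BMDCs. Across genotypes they correlated at -0.514 to 0.0325, so BMDC numbers pair control with DMXAA within a genotype. In BMDMs the value was 0.611 in WT, within the BMDC range for the same genotype, and 0.0392 in CRE. BMDM numbers were not taken as pairs, so the main WT BMDM test leaves out a pairing that its libraries show. The alternatives tried were no filter, median of ratios scaling, DESeq2 1.42.0, limma 3.58.1 on log2(FPKM + 1), the replicate block by number and within genotype, the compared groups alone, the BMDM libraries numbered 3 included, and leaving out each library. Chosen after seeing the data were scaling by library totals, leaving out the WT BMDM or the CRE BMDC libraries numbered 2, and these alternatives for Cd163 without the filter.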

Additional observations from a re-analysis of the deposited data

How the results depend on the processing

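Of 1718 values of single genes under an alternative, 1599 kept their direction and their side of the threshold or changed sign without being called, 48 lost a call, 69 gained one and 2 were called with the opposite sign. Values called in neither fit count as kept. Of the called DMXAA responses, Lyz2 in WT BMDMs lost its call in 4 of 14 alternatives and Adgre1 in WT BMDCs in 6 of 14. In CRE BMDMs Lyz2 and Mrc1 each lost theirs in 5 of 13. Mertk lost it in 0 of 14 in WT BMDCs and 0 of 15 in CRE BMDCs. Depth limits Cd163, and 2 libraries a group limit the BMDM tests. For the changes below the cause was not tested, except that fits with fewer libraries estimate the spread from fewer.

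The number of identity genes called, of 8, moved as follows. Calls over all genes moved between fits as well, so a moved count is not by itself a result about these genes. In the WT BMDM response 4415 of 10938 genes were called in the main fit and 6750 under library totals. With the libraries numbered 3 included, 0 of 12379 genes were called in each BMDM comparison. In the DMXAA response of WT BMDMs 1 identity gene was called. The count was 2 without the filter, under median of ratios scaling, by DESeq2 and by limma. It was 3 under scaling by library totals and in the replicate block within genotype, and 0 with the libraries numbered 3 or in the compared groups alone. In CRE BMDMs 2 were called, against 5 in the compared groups alone, 0 with the libraries numbered 3 and 0 with any library left out. Between genotypes in BMDMs under DMXAA 2 were called, against 4 under library totals and 0 with the libraries numbered 3. The count was 3 by DESeq2, without the filter and in the compared groups alone (adding Cd14). In control 0 were called, against 2 without the filter and 1 by DESeq2. For the BMDM interaction 0 were called, against 2 in the block within genotype. Leaving out both WT libraries numbered 2, which leaves a single library in each WT group, turned 2 signs. Msr1 in CRE against WT control was then -0.31, against 0.12, and the BMDM interaction of Cd14 was -0.52, against 0.08.

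In WT BMDCs 2 were called, against 4 in the block within genotype, 3 by DESeq2 and under library totals (adding Csf1r) and 1 to 2 with a library left out, and in CRE BMDCs 1, against 3 in that block, 2 under library totals, 2 without both CRE libraries numbered 2 and 1 to 2 with a library left out. In BMDC genotype comparisons and their interaction the count was 0 in every alternative run. Between cultures 5 were called in WT control (8 without the filter, 6 in the compared groups alone, adding Lyz2), 6 in CRE control (7 without the filter, 5 to 6 with a library left out) and 5 in WT under DMXAA (6 without the filter), and 0 in each with the libraries numbered 3. The cell type interaction gave 0, against 1 without the filter (Mertk, 1.37, adjusted p = 0.00450) and 2 in the block within genotype.

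The replicate block by number across genotypes gave 3 calls in WT BMDCs, adding Cd68 (0.50, adjusted p = 0.0215), and changed no other count. BMDM numbers were not taken as pairs, although those of WT deviated together. There the block within genotype called Mertk (0.82, adjusted p = 0.00233) and Cd68 (0.32, adjusted p = 0.0324) beside Lyz2 in WT. It also called the BMDM interactions of Mertk (-0.95, adjusted p = 0.0182) and Mrc1 (-0.64, adjusted p = 0.0368).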
